A study of Caenorhabditis elegans with 6 samples.

Results

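RNA sequencing of whole Caenorhabditis elegans covered 6 genes, C42D4.1, ZK742.3, C53B4.3, Y46H3D.8, F13E9.8 and clx-1, that stood out for their high level after chaetocin and for how little their names say about function. They are 6 of the 46926 genes in the deposited table and account for 7 of its transcripts. They were picked by name from the deposited gene and transcript tables because their values differed between chaetocin and DMSO, so their fold changes below are a description and carry no test. Their gene models were not used in that choice. The neighbours of the 6 on the chromosome and the other genes that share a family name with 2 of them were tested, as lists drawn up with results of these data known.

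The treated animals were wild-type N2 worms, between late L4 and young adulthood, that spent 5 h with 25 µM chaetocin, and the control animals were the same strain and stage with the vehicle DMSO for the same time. During exposure all animals were rotated in tubes of NGM buffer with heat-treated OP50 bacteria as food. Each group had 3 libraries, which the labels number as biological replicates 1 to 3 without naming separate cultures. DMSO replicate 3 is the library whose column in the deposited tables starts with NA4, and DMSO replicate 2 the one that starts with NA3. A p-value below therefore sets a difference against the spread among these 6 libraries.

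Chaetocin, a fungal product with a disulfide bridge, is used to inhibit histone lysine methyltransferases and is also known to react with cellular thiols. Worms meet foreign compounds mainly through the intestine, where genes for oxidation, conjugation and export are switched on in large groups. C. elegans genes are packed closely: neighbours can lie inside each other's introns, some are transcribed together as operons, and the 5′ ends of most messenger RNAs are replaced by a short leader through trans-splicing. Related genes often sit side by side in clusters.

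Levels are given as FPKM, fragments scaled by transcript length and library size, after a further small scaling between libraries, so they can be compared between genes. Depth per library is unknown because the levels come without counts per library. A listed 0 does not show that a gene was silent. In bulk RNA, a change in the number of cells of a type cannot be told apart from a change in RNA per cell. All 24 markers chosen for tissues of the worm were in the table, and 23 had at least 0.5 FPKM in all 6 libraries; the exception was the cuticle collagen gene rol-6. Among them ges-1, an intestinal esterase gene, was higher and lin-42, a gene that cycles with larval molts, was lower (limma, adjusted p = 0.005441 and 0.0366). The larval molt markers lin-42 and mlt-10 summed to 4.40 to 5.66 FPKM with chaetocin and 7.03 to 9.30 FPKM with DMSO. Alone, mlt-10 did not pass (limma, adjusted p = 0.1014). No hypodermis marker passed, rol-6 included, at 0.407 FPKM on average with chaetocin and 1.81 FPKM with DMSO (limma, adjusted p = 0.08539). The summed level of the 3 intestine markers was 4636 to 4974 FPKM in the chaetocin libraries and 5140 to 6353 FPKM in the DMSO libraries. Nearly all of that sum was the yolk protein gene vit-2, which did not pass, at 4759, 4579 and 4917 FPKM with chaetocin and 6302, 6172 and 5092 FPKM with DMSO (limma, adjusted p = 0.0962). The intestinal transcription factor gene elt-2 did not pass either, at 10.3, 10.6 and 10.2 FPKM with chaetocin and 11.3, 11.1 and 10.8 FPKM with DMSO (limma, adjusted p = 0.4293). Their part in the results below was not tested.

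One control library stood apart in most of these 6 genes, least so in C53B4.3. DMSO replicate 3 was the highest of the DMSO libraries for 6 of the 6 genes, whereas it was the highest for 37.7% of the 15213 genes tested. Its level exceeded the mean of DMSO replicates 1 and 2 by 3.56% of the chaetocin mean for clx-1, 2.30% for C42D4.1, 2.13% for F13E9.8, 1.63% for ZK742.3, 1.49% for Y46H3D.8 and 0.836% for C53B4.3. The same measure was taken in the 43 other genes whose chaetocin mean was at least 10 FPKM and at least 8-fold above the mean of DMSO replicates 1 and 2. In 38 of these 43 genes DMSO replicate 3 was the highest DMSO library, and the median excess was 2.11% of the chaetocin mean, with quartiles of 1.49 and 3.20%. That choice of genes favours those low in DMSO replicates 1 and 2. With genes chosen in the same way for each other control, DMSO replicate 1 was the highest in 5 of 39 (median excess -0.866%). DMSO replicate 2 was the highest in 7 of 41 (median excess -1.02%). Values for the 6 genes are therefore given per library, with and without DMSO replicate 3.

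**Figure D1:**
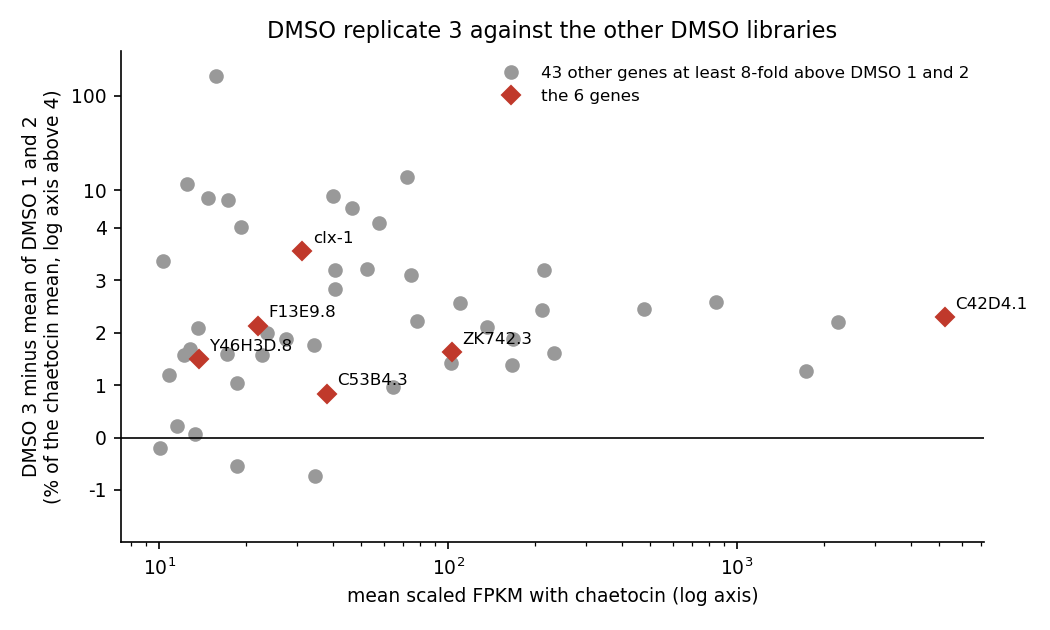
Each point is a gene, placed by its mean scaled FPKM with chaetocin (x axis, logarithmic) and by the level of DMSO replicate 3 minus the mean of DMSO replicates 1 and 2 as a percentage of that mean (y axis, linear up to 4 and logarithmic above). Diamonds are the 6 genes, between 0.836 and 3.56%. Circles are the 43 other genes chosen as far above DMSO replicates 1 and 2, with a median of 2.11%. The circle at 163% is the long noncoding RNA linc-1. It was at 15.7 FPKM on average with chaetocin and was listed at 0, 0 and 25.7 FPKM in DMSO replicates 1, 2 and 3.

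C42D4.1 was by far the most abundant of the 6. Its level was 5206, 5282 and 5224 FPKM in the chaetocin libraries and 365, 328 and 467 FPKM in the DMSO libraries. The coefficient of variation among the chaetocin libraries was 0.755%, and no library of one group came near the other. The mean was 5237 ± 39.5 FPKM with chaetocin and 387 ± 72.0 FPKM with DMSO (SD, n = 3 each), a 13.5-fold ratio and a log2 fold change of 3.78 ± 0.12 (± SE from the fit over all genes, on the log2(FPKM + 0.1) scale). It came to 3.92 with DMSO replicate 3 left out. With chaetocin C42D4.1 ranked 33, 29 and 23 by level among the genes above 0 in each library, and with DMSO it ranked 399, 446 and 334. It made up 0.401, 0.389 and 0.424% of all FPKM in the chaetocin libraries and 0.0294, 0.0255 and 0.0369% in the DMSO libraries.

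F13E9.8 was at or near 0 in the controls. It was listed at 22.6, 22.6 and 21.0 FPKM in the chaetocin libraries and at 0.171, 0 and 0.555 FPKM in the DMSO libraries. Its log2 fold change was 6.41 ± 0.61, and 7.06 without DMSO replicate 3. The value depends on the pseudocount: with 0.01 in place of 0.1 FPKM it was 7.77 and with 1 FPKM it was 4.24.

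**Figure D2:**
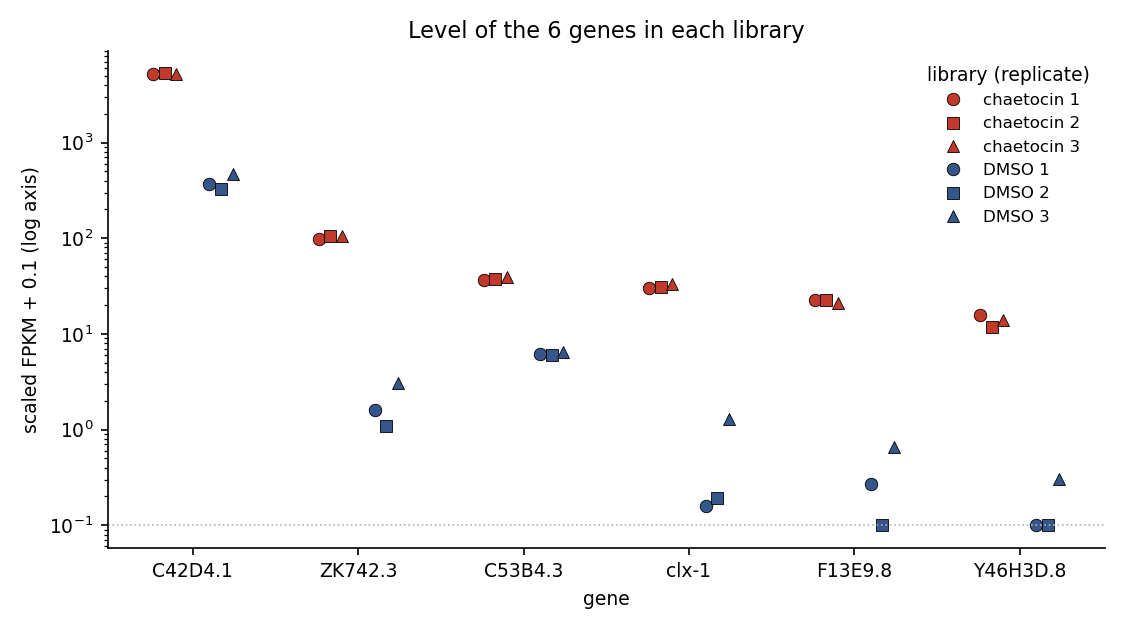
Scaled FPKM plus 0.1 (y axis, logarithmic) of each of the 6 genes in the chaetocin libraries (red, left) and the DMSO libraries (blue, right), with a symbol per replicate; the dotted line marks a gene listed at 0. The groups do not overlap for any of the 6 genes, and DMSO replicate 3 (blue triangle) is the highest DMSO library in each.

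Both C42D4.1 and F13E9.8 carry a family name in the Ensembl annotation of the genome build WBcel235, srlf-7 and srlf-14. That annotation places C42D4.1 (WBGene00016594) on chromosome IV from 7189287 to 7190333 on the plus strand, with 3 exons and 251 codons, and F13E9.8 (WBGene00008757) on chromosome IV from 10893580 to 10894355 on the minus strand, with 2 exons and 213 codons. The annotation does not spell out what srlf stands for, and no function is taken from the name. It lists 34 further srlf genes, a list drawn up after the values of the 6 genes had been seen. Of these 34, 20 were below the filter of 0.5 FPKM in 3 libraries, and 6 of the 34 were listed at 0 in all 6 libraries. No library of any of the 20 exceeded 1.24 FPKM with chaetocin or 1.13 FPKM with DMSO.

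Of the others, 14 passed the filter, and 3 of these, F13E9.14, F13E9.4 and pqn-97, did so through chaetocin libraries alone. Those 3 had to differ, so their values are given without a test. Among the 11 with a DMSO library at the filter, 3 rose and 2 fell, beside 8.45% of all 15213 genes tested (5.53% higher, 2.92% lower; limma, Benjamini-Hochberg adjusted p under 0.05). The median log2 fold change of the 11 was 0.03, against -0.000496 for all genes tested. For the 10 with DMSO replicate 1 or 2 at the filter it was -0.05, with the same counts. C28C12.3, with 2 DMSO libraries at the filter, and ZK970.7, with 1, also needed chaetocin libraries to pass it. C28C12.3 is among the 3 that rose.

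The largest change among the 11 was that of C28C12.4 (srlf-3), with 24.0, 22.8 and 24.1 FPKM in the chaetocin libraries and 0.834, 0.834 and 1.31 FPKM in the DMSO libraries. It rose by 4.47 ± 0.17 on the log2 scale (limma, adjusted p = 1.636e-05), and its groups lay far apart. Its neighbour C28C12.3 (srlf-2) rose to 2.75 ± 0.470 FPKM with chaetocin, against 0.534 ± 0.0958 FPKM with DMSO (SD, n = 3 each). No p-value is given for C28C12.3, since it needed chaetocin libraries to pass the filter. ZK596.1 (srlf-30) was at 68.1, 69.5 and 72.6 FPKM with chaetocin and 15.7, 16.2 and 19.9 FPKM with DMSO, 2.02 ± 0.09 higher on the log2 scale (limma, adjusted p = 3.191e-05).

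The chromosome V gene pqn-97 (srlf-36) was at 0.965, 0.932 and 0.678 FPKM with chaetocin and was listed at 0, 0.0603 and 0 FPKM with DMSO. The genes that fell did so by much less than those that rose. ZK822.4 (srlf-32) was at 17.3 ± 0.926 FPKM with chaetocin and 23.8 ± 1.10 FPKM with DMSO (log2 fold change -0.46 ± 0.06; limma, adjusted p = 0.004598). The gene that the files call nlp-77, a neuropeptide-like name, and the annotation srlf-1 was at 282 ± 8.35 FPKM with chaetocin and 348 ± 20.2 FPKM with DMSO (log2 fold change -0.30 ± 0.05; limma, adjusted p = 0.01014). The nlp-77 call was lost without chaetocin replicate 2 (limma, adjusted p = 0.05847; range over all alternatives 0.009315 to 0.05847).

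The second most abundant of the other srlf genes, ZK822.2 (srlf-31), was at 93.7 ± 4.42 FPKM with chaetocin and 91.5 ± 2.27 FPKM with DMSO and did not pass (log2 fold change 0.03 ± 0.04; limma, adjusted p = 0.7364). ZK970.7 (srlf-34) varied too much to call, with 5.56, 5.61 and 1.05 FPKM in the chaetocin libraries and 0.0603, 0.352 and 2.83 FPKM in the DMSO libraries (limma, adjusted p = 0.2826). Its groups overlapped. By chromosome, 21 of the 36 srlf genes, C42D4.1 and F13E9.8 included, lie on chromosome IV, 9 on V, 4 on II and 2 on III. Genes of a family can share fragments in the counting, and how alike the srlf sequences are was not analysed here.

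**Figure D3:**
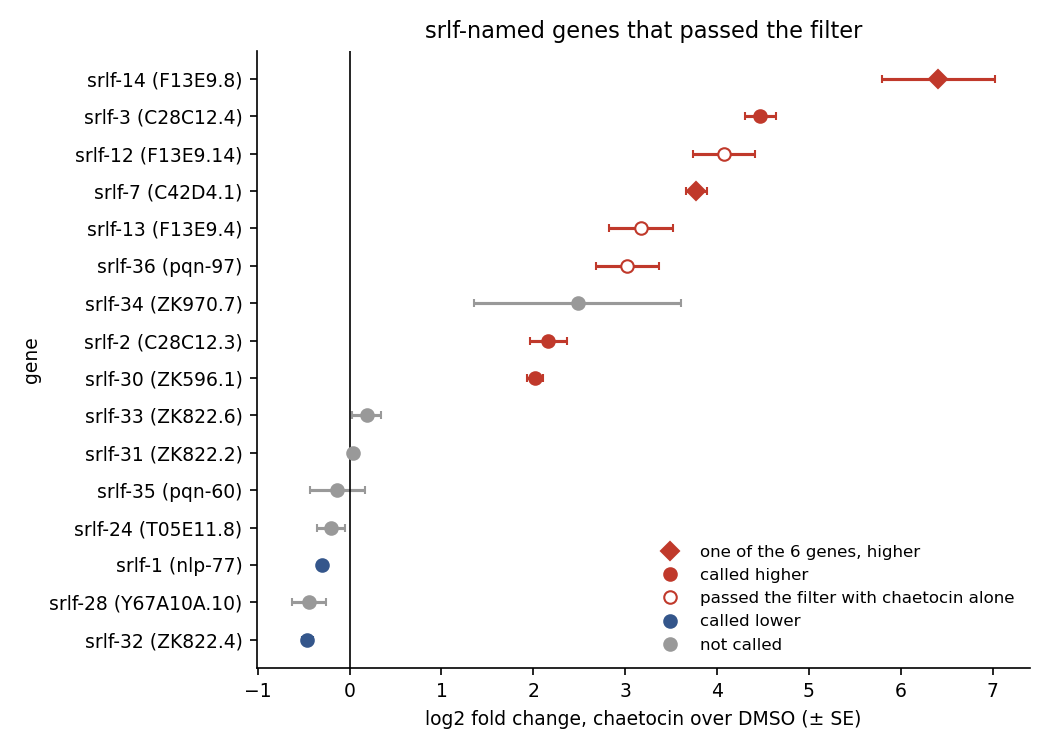
Log2 fold change of chaetocin over DMSO with its SE (x axis) for the 16 srlf-named genes that passed the filter, with the annotation name and the name in the files. Diamonds are C42D4.1 and F13E9.8; 3 further genes are called higher (filled red), with log2 fold changes from 2.02 to 4.47, and 2 lower (blue), at -0.30 and -0.46; open circles are the 3 genes that passed the filter through chaetocin libraries alone.

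The neighbours of the 6 genes were read as the 3 nearest protein-coding genes on each side, 36 in all, of which 25 passed the filter. Of these 25, str-249, F13E9.14 and F13E9.4 did so through chaetocin libraries alone and had to differ, so they are given without a test. Among the 22 with a DMSO library at the filter, 2 rose and 0 fell (limma, adjusted p under 0.05), beside 8.45% of all genes tested. Those that rose were C42D4.13, beside C42D4.1, and klo-1, near clx-1. C42D4.13 reached the filter among the controls in DMSO replicate 3 alone. It therefore also needed its chaetocin libraries to pass, and its rise is given without a p-value. Of the 21 neighbours with DMSO replicate 1 or 2 at the filter, 1 rose, klo-1. The median log2 fold change of the 22 was 0.05, against -0.000496 for all genes tested.

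On either side of F13E9.8 lies an srlf gene on the same strand. F13E9.14 (srlf-12), 1486 bases to the left, was at 4.83, 6.88 and 5.88 FPKM with chaetocin and 0.432, 0.271 and 0.117 FPKM with DMSO. F13E9.4 (srlf-13), 869 bases to the right, was at 1.14, 0.850 and 1.02 FPKM with chaetocin and was listed at 0, 0 and 0.0779 FPKM with DMSO. In both genes the chaetocin libraries lay above the DMSO libraries, which the filter favoured. The next gene to the left, F13E9.15, was abundant in both groups and did not pass, with 77.7, 72.4 and 71.6 FPKM with chaetocin and 81.1, 84.2 and 94.3 FPKM with DMSO (limma, adjusted p = 0.09346). F13E9.9, F13E9.19 and F13E9.16 were below the filter.

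At C42D4.1 the nearest gene on the left, C42D4.13, begins 1156 bases away on the opposite strand. It was at 11.5, 7.85 and 9.84 FPKM with chaetocin and 0.141, 0.302 and 1.334 FPKM with DMSO (log2 fold change 4.23 ± 0.61). The log2 fold change came to 4.96 with DMSO replicate 3, the highest control, left out. The next gene, str-249, named as a chemoreceptor of the seven-transmembrane type, was at 3.40, 3.00 and 3.49 FPKM with chaetocin and was listed at 0, 0 and 0.146 FPKM with DMSO. The nearest gene on the right, R13A1.5, lies closer, at 722 bases, and was at 2.44 ± 0.257 FPKM with chaetocin and 2.62 ± 0.504 FPKM with DMSO (SD, n = 3 each; limma, adjusted p = 0.8279).

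**Figure D4:**
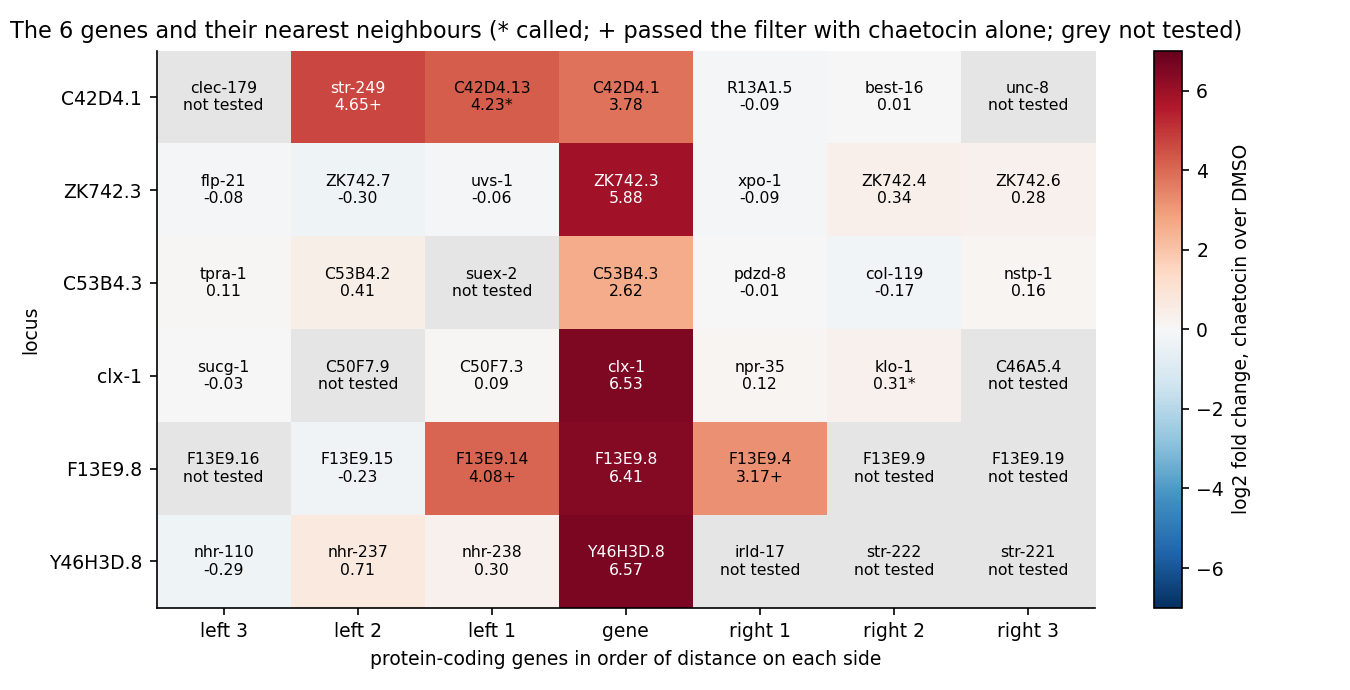
Log2 fold change of chaetocin over DMSO (colour and number) for each of the 6 genes (centre column) and the 3 nearest protein-coding genes on each side (left is towards lower coordinates); an asterisk marks neighbours with an adjusted p under 0.05, a plus those that passed the filter through chaetocin libraries alone, and grey genes below the filter. The asterisks stand at C42D4.13, with 4.23, and klo-1, with 0.31. C42D4.13 also needed its chaetocin libraries to pass the filter.

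ZK742.3 was at 98.8, 104 and 105 FPKM in the chaetocin libraries and 1.51, 0.995 and 2.93 FPKM in the DMSO libraries. The means were 103 ± 3.56 FPKM with chaetocin and 1.81 ± 1.00 FPKM with DMSO (SD, n = 3 each), a 56.8-fold ratio and a log2 fold change of 5.88 ± 0.33 (6.28 without DMSO replicate 3). The gene (WBGene00022813, chromosome V, 7808367 to 7809912, minus strand, 4 exons, 447 codons) lies wholly within xpo-1, which encodes the nuclear export receptor exportin and is read from the opposite strand. The exons of ZK742.3 and xpo-1 share 0 bases, so ZK742.3 sits in intron sequence of its host.

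The host gene did not pass the test. The level of xpo-1 was 143, 141 and 150 FPKM with chaetocin and 162, 158 and 143 FPKM with DMSO, and the groups overlapped (log2 fold change -0.09 ± 0.05; limma, adjusted p = 0.4035). ZK742.4, which ends 315 bases upstream of ZK742.3 on the same strand, was at 4.09, 2.90 and 3.12 FPKM with chaetocin and 2.79, 2.42 and 2.65 FPKM with DMSO (log2 fold change 0.34 ± 0.16; limma, adjusted p = 0.2911). On the other side uvs-1 had 23.4 ± 0.351 FPKM with chaetocin and 24.4 ± 0.103 FPKM with DMSO (SD, n = 3 each; limma, adjusted p = 0.4309).

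C53B4.3 had the smallest fold change of the 6. Its DMSO libraries were the tightest of the 6, with a coefficient of variation of 3.02%, and that among its chaetocin libraries was 4.09%. It was at 36.6, 37.6 and 39.7 FPKM in the chaetocin libraries and 6.02, 5.98 and 6.32 FPKM in the DMSO libraries. The means of 38.0 ± 1.55 FPKM with chaetocin and 6.11 ± 0.184 FPKM with DMSO (SD, n = 3 each) gave a 6.22-fold ratio and a log2 fold change of 2.62 ± 0.06. Leaving out DMSO replicate 3 gave 2.64. Ordered by log2 fold change among all genes tested, C53B4.3 stood at place 129, between lips-5 (2.62, place 128) and F16B3.2 (2.61, place 130), whereas Y46H3D.8, clx-1, F13E9.8 and ZK742.3 held places 7 to 10 and C42D4.1 place 50.

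C53B4.3 is the only one of the 6 with more than 1 transcript in the deposited table, and its transcripts differed in how far they moved. The gene (WBGene00008273) lies on chromosome IV from 8970867 to 8973712 on the minus strand. Transcript C53B4.3.2 starts with an exon of 108 bases (8973605 to 8973712) that lies wholly in the 5′ untranslated region, and transcript C53B4.3.1 lacks it and starts at 8973316. Both models encode 415 codons from the same start codon, with 5′ untranslated regions of 118 bases in C53B4.3.2 and 10 bases in C53B4.3.1.

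Transcript C53B4.3.1 was at 30.3, 31.8 and 33.7 FPKM in the chaetocin libraries and 2.85, 3.23 and 2.77 FPKM in the DMSO libraries. That is a 10.8-fold ratio of means and a log2 fold change of 3.39 ± 0.09. Transcript C53B4.3.2, with the added exon, was at 6.29, 5.85 and 5.97 FPKM in the chaetocin libraries and 3.18, 2.75 and 3.54 FPKM in the DMSO libraries, a 1.91-fold ratio and a log2 fold change of 0.92 ± 0.13. In both transcripts the chaetocin libraries lay above the DMSO libraries, as they did in 12.1% of the 21002 transcripts tested; 4.65% of these were called, 3.18% higher and 1.47% lower (limma, adjusted p under 0.05). Of the difference in mean level, 29.0 FPKM came from C53B4.3.1 and 2.88 FPKM from C53B4.3.2.

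As a share of the gene, C53B4.3.1 made up 82.8, 84.5 and 85.0% in the chaetocin libraries and 47.2, 53.95 and 43.9% in the DMSO libraries. The means were 84.1 ± 1.12% with chaetocin and 48.4 ± 5.11% with DMSO (SD, n = 3 each), 35.7 percentage points apart, and the groups did not overlap. Among 4898 genes with at least 2 transcripts and a mean of at least 1 FPKM in both groups, 48 had a larger shift in a transcript share, 25 of them with no overlap between the groups, and the median of the largest shift per gene was 3.21 points. C53B4.3.1 has 0 exon bases that are not also in C53B4.3.2, which has 110 of its own, so the split rests on fragments over the first exon and was estimated by the authors' software. Its error within a library is unknown.

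**Figure D5:**
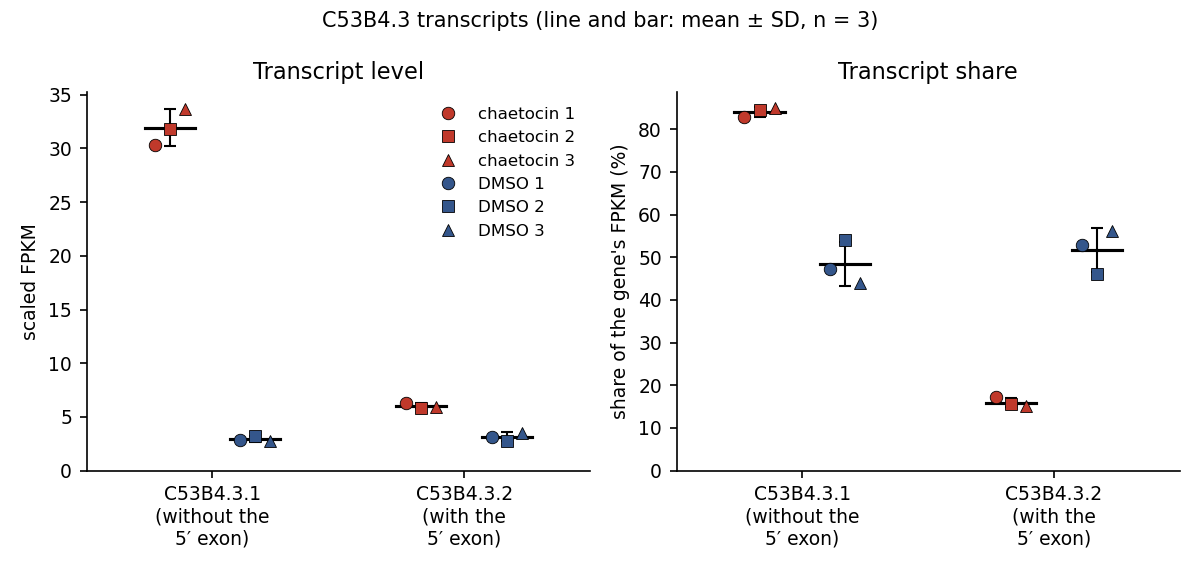
Scaled FPKM (left) and share of the gene's FPKM in percent (right) of the transcripts of C53B4.3 in each chaetocin (red) and DMSO (blue) library; the horizontal line and bar are the mean ± SD over 3 libraries. C53B4.3.1 makes up 84.1% of the gene with chaetocin and 48.4% with DMSO.

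None of the tested neighbours of C53B4.3 passed. The collagen gene col-119, inside pdzd-8, was at 2581, 2469 and 2243 FPKM with chaetocin and 2682, 2850 and 2668 FPKM with DMSO (limma, adjusted p = 0.1584). The nearest tested gene, pdzd-8, had 51.4 ± 1.94 FPKM with chaetocin and 51.9 ± 4.84 FPKM with DMSO (SD, n = 3 each; limma, adjusted p = 0.9571). On the other side suex-2 was below the filter.

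The gene clx-1 (WBGene00000551) is annotated as a single exon of 1677 bases on chromosome IV, from 7734648 to 7736324 on the plus strand, with 558 codons. It was at 29.8, 30.8 and 33.2 FPKM in the chaetocin libraries and 0.0603, 0.0905 and 1.19 FPKM in the DMSO libraries. DMSO replicate 3 was more than 10 times either other control, and it set most of the DMSO spread. The log2 fold change was 6.53 ± 0.75 with all libraries and 7.48 without DMSO replicate 3. The adjoining gene C50F7.3, 417 bases upstream on the same strand, was at 2.71, 1.73 and 1.89 FPKM with chaetocin and 1.67, 1.95 and 2.22 FPKM with DMSO, with overlapping groups (limma, adjusted p = 0.8482). Further off, klo-1, named after the klotho family, rose slightly, to 20.3 ± 0.453 FPKM with chaetocin, against 16.3 ± 0.333 FPKM with DMSO (SD, n = 3 each; log2 fold change 0.31 ± 0.05; limma, adjusted p = 0.007187).

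Y46H3D.8 was the lowest of the 6 in both groups. It was listed at 15.7, 11.7 and 13.7 FPKM in the chaetocin libraries and at 0, 0 and 0.204 FPKM in the DMSO libraries. The spread among chaetocin libraries, a coefficient of variation of 14.8%, was the widest of the 6, where the other 5 had 0.755 to 5.59%. Its log2 fold change of 6.57 ± 0.45 depends on the pseudocount, at 8.94 with 0.01 FPKM and 3.78 with 1 FPKM, and without DMSO replicate 3 its controls were all listed at 0, so no fold is given there.

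Y46H3D.8 (WBGene00021612) spans 1630309 to 1631248 on the minus strand of chromosome V, with 3 exons and 247 codons. The noncoding RNA gene Y46H3D.9 lies inside it on the opposite strand and shares 146 exon bases. No source used here says if strand entered the counting, so reads of the pair cannot be told apart. Y46H3D.9 was listed at 7.54 FPKM in chaetocin replicate 3 and at 0 in the other 5 libraries. The 3 genes to the left of Y46H3D.8 are the nuclear hormone receptor genes nhr-238, nhr-237 and nhr-110, transcription factor genes of the ligand-binding type, and 0 of the 3 passed (limma, adjusted p = 0.4039, 0.1297 and 0.3457). The nearest, nhr-238, was at 1.71, 2.52 and 2.10 FPKM with chaetocin and 1.51, 1.76 and 1.75 FPKM with DMSO. The 3 genes to the right, irld-17, str-222 and str-221, were below the filter.

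Side by side, the chaetocin levels of the 6 genes ran from C42D4.1 through ZK742.3, C53B4.3, clx-1 and F13E9.8 to Y46H3D.8, and no pair next to each other in that order overlapped in its 3 chaetocin libraries. With DMSO the order was C42D4.1, C53B4.3 and ZK742.3, followed by clx-1, F13E9.8 and Y46H3D.8, and from ZK742.3 downwards each gene's range overlapped that of the next. In 2199 of the 15213 genes tested, 14.5%, all 3 chaetocin libraries lay above all 3 DMSO libraries, and the 6 genes are among them by choice.

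The authors' deposited table of coding genes holds all 6, with its sign turned here to chaetocin over DMSO. In the authors' deposited table the log2 fold changes were 7.72 ± 1.498 (SE) for Y46H3D.8, 6.54 ± 0.94 for F13E9.8, 6.13 ± 1.16 for clx-1, 5.82 ± 0.50 for ZK742.3, 3.75 ± 0.11 for C42D4.1 and 2.63 ± 0.09 for C53B4.3. The mean normalized counts behind them in the authors' deposited table were 128, 280, 1364, 3363, 68033 and 1362. Y46H3D.8 and F13E9.8, whose log2 fold change moved most with the pseudocount, were those with the fewest counts.

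The genes with the most similar profile over the 6 libraries were found as those with the smallest root mean square difference in centred log2(FPKM + 0.1). For C42D4.1 these were the cytochrome P450 gene cyp-33C7 (0.0483) and the glucuronosyltransferase gene ugt-1 (0.0671). For ZK742.3 they were the P-glycoprotein exporter gene pgp-9 (0.0653) and the glutathione S-transferase gene gst-33 (0.136), and for C53B4.3 the glutathione peroxidase gene gpx-1 (0.0919) and F19B2.5 (0.102). The smallest differences of the other 3 were wider. The gene oac-14, named as an acyltransferase, was nearest to Y46H3D.8 (0.214) and F13E9.8 (0.350), whose second was ZK742.3 (0.457). The nearest to clx-1 were Y46H3D.8 (0.455) and oac-14 (0.472), and the second for Y46H3D.8 was pgp-9 (0.421). With 3 libraries per group, this distance mostly follows the fold change, for which the 6 genes were chosen. The log2 fold change was 3.73 for both cyp-33C7 and ugt-1, beside 3.78 for C42D4.1. Shared regulation was not tested.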

How the data were processed

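RNA libraries of whole animals, 3 per group, were made with a SMARTer mRNA kit from total RNA, per the labels' protocols. Per the submitters' processing notes, the tools were STAR 2.7.9a and RSEM 1.3.1, with Trimmomatic 0.36, FastQC 0.11.4 and MultiQC, and the build was WBcel235; no source used here names the annotation release. The authors deposited FPKM per gene and per transcript, read as such because the columns are named after RSEM results and sum to 1232966 to 1326067. Where a fragment matches several transcripts, RSEM divides it by estimation. A table deposited by the authors holds a log2 fold change (DMSO over chaetocin), a p-value, its SE (taken as a score) and a mean normalized count (taken as a signal); once turned, the first had the sign of the FPKM difference for 532 of 533 genes with a log2 fold change over 1 in size.

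Scaling between libraries used a trimmed mean of log ratios without weights (30% of ratios and 5% of means trimmed at each end; factors 0.9769 to 1.027). Features at 0.5 FPKM or more in 3 libraries were tested on log2(FPKM + 0.1) with limma 3.58.1 (R 4.3.3), with variance moderation along the mean, 2-sided, Benjamini-Hochberg adjusted over the whole table at 0.05. This called 842 genes higher and 444 lower of 15213, and 668 and 309 of 21002 transcripts (4.65%). A fold change on this scale understates the change of low genes. The fit was tested on simulated data. Positions and names came from Ensembl release 115; all 46926 identifiers matched. Named genes were the 6 members, called and nearest neighbours, called srlf genes and the 2 closest profiles per member. Added after their values were seen were ZK822.2, ZK970.7, F13E9.15, ZK742.4, col-119, nhr-237, nhr-110, linc-1, rol-6, ges-1, vit-2, elt-2, lin-42 and mlt-10. The members and lists were chosen with earlier results of these data known.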

Additional observations from a re-analysis of the deposited data

How the results depend on the processing

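Under 8 other settings and with each replicate left out, the 6 genes stayed higher with chaetocin, and the number of called neighbours stayed at 4 or 5 and that of the other srlf genes at 6 to 9; these counts include genes that passed the filter through chaetocin libraries alone. The 6 genes' log2 fold changes moved most with the pseudocount or without a DMSO replicate, with ranges over all settings of 3.78 to 8.94 for Y46H3D.8, 4.24 to 7.77 for F13E9.8, 4.56 to 7.48 for clx-1, 5.27 to 6.28 for ZK742.3, 3.66 to 3.92 for C42D4.1 and 2.45 to 2.64 for C53B4.3. The replicate numbers did not pair the libraries (correlations of same-numbered deviations 0.106, 0.0668 and -0.0265). With the replicate block the calls were 582 genes higher and 255 lower and 337 transcripts higher and 109 lower, and no named neighbour or srlf gene lost its call. Leaving out a replicate gave 599 to 830 genes higher and 271 to 524 lower, and 412 to 606 transcripts higher and 148 to 270 lower. The upper end of each range came without DMSO replicate 3, where 524 genes were lower, beside 444 with all libraries. Without any other replicate, 599 to 651 genes were higher and 271 to 326 lower. The cause was not tested. Uncalled neighbours near 0 changed sign when a replicate was left out, within -0.0902 to 0.0275 for pdzd-8, -0.0678 to 0.252 for npr-35, -0.0936 to 0.214 for C50F7.3 and -0.169 to 0.0613 for R13A1.5. The planned searches for related proteins and promoter motifs were not run, since they need sequences not used here. Depth per library is unknown, so no counting error is given for values near 0.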
